A study of Sus scrofa with 28 samples.

Results

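FABP4, PNPLA2, CFD and RBP7 are 4 genes that are strongly expressed in fat cells, and their levels in loin muscle were read here as a possible sign of the fat cells lying between the muscle fibres. Their probe sets were found by gene symbol in the tables of the study or, where these gave no name, in the annotation of the array. Each gene had 1 probe set, so that 4 of the 5226 probe sets of the table, and 4 of its 2275 named genes, are described. The symbol alone chose the probe sets, but the 4 genes were chosen with earlier results of these data known. RBP7 was also in the study's own list of genes differing between genetic types, which was drawn from these same arrays, so its difference below is not independent evidence of that list.

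Fat cells store triglycerides in a lipid droplet and release them as fatty acids when energy is needed. FABP4 is the fatty acid-binding protein of the fat cell cytoplasm and carries fatty acids to and from the droplet. PNPLA2 (adipose triglyceride lipase) is the enzyme that opens the breakdown of triglycerides and also acts in muscle fibres. CFD (complement factor D, or adipsin) is a serine protease that fat cells secrete and that starts the alternative complement pathway. RBP7 is a cytoplasmic retinol-binding protein of the same protein family as FABP4. FABP4 and RBP7 are also known from the endothelium of capillaries, and FABP4 from macrophages.

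Total RNA from the Longissimus dorsi muscle of 28 male piglets was measured on porcine genome arrays, 1 for each piglet, with 14 piglets of each genetic type: Iberian of pure breed (IB) and the cross of Duroc × Iberian (DU×IB). The piglets were suckled by their dams and slaughtered at weaning, at 28 days of age. All dams were Iberian sows, mated with Iberian boars for IB and inseminated with Duroc semen for DU×IB, and the crossbred piglets came from fewer litters than the purebred ones. The labels do not give the litter or the sire, so the tests take the piglets as independent. Where littermates were alike, the p-values and intervals below overstate the precision.

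The deposited values were log2 expression levels between 1.44 and 15.7. The arrays fell into 2 groups by their bacterial spike-in controls, 16 arrays with a mean control level of 9.03 to 9.78 and 12 arrays with 6.36 to 7.22, sizes that match the 2 hybridization series of the study. Each series held as many IB as DU×IB piglets, 8 of each in the first and 6 of each in the second. The first principal component of the table held 47.3% of its variance and followed the series (r² of 0.796) but not the genetic type (r² of 6.72e-05), and therefore values that take the series as a block, and those of each series alone, stand beside the pooled ones. Of 26 muscle fibre markers 5 were measured, among them MYL3, a light chain of slow and cardiac muscle myosin, at 12.95 in IB and 13.31 in DU×IB, and ATP2A1, the calcium pump of fast fibres, at 12.29 and 12.19. Of 25 markers of mature fat cells other than the 4 genes only CAV1, a membrane protein abundant in fat cells and endothelium, had a named probe set here, and ADIPOQ, LEP, PLIN1, CIDEC, LIPE and PPARG were not analysed. The label of fat cell markers could thus not be checked against the defining genes of that cell. IB replicates 1 and 12 stood apart from the other arrays in the mean level of macrophage markers (7.81 and 7.24, against 5.32 to 5.98 in the other IB piglets) and of complement genes (9.18 and 9.30, against 6.83 to 7.82). Values that rest on them are given without them too, an alternative chosen after the values were seen. Without both, RBP7 kept its call (1.60, limma adjusted p = 0.0628) and FABP4, CFD and PNPLA2 were at 0.39, -0.43 and -0.32 without passing. In a whole tissue sample, fewer cells of a type and less RNA per cell cannot be told apart.

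The 4 genes did not move together between the genetic types. RBP7 was higher in DU×IB and passed the test, whereas FABP4 was on average 0.37 higher, and CFD and PNPLA2 0.44 and 0.43 lower, in DU×IB on the log2 scale without passing it. Of the 4 genes 1 was thus called, where 0.995% of all probe sets were called (52 of 5226, 40 of them higher in DU×IB, limma with Benjamini-Hochberg adjustment, threshold of 0.10).

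RBP7 ranged in IB from 2.20 over a median of 2.47 to 5.10, and in DU×IB from 2.48 over a median of 4.39 to 6.27. All 14 DU×IB piglets lay above the IB median, 5 of them lay above every IB piglet and 8 IB piglets lay below every DU×IB piglet, so the genetic types overlapped in between. The mean was 2.87 ± 0.92 in IB and 4.45 ± 1.17 in DU×IB (SD, n = 14 each), a log2 difference of 1.58 (SE 0.37, 95% confidence interval 0.83 to 2.34, limma adjusted p = 0.0309). With the series as a block the difference stayed at 1.58 (adjusted p = 0.0202). Most of the IB values were close to the bottom of the scale. The level was under 3 in 11 of 14 IB piglets, between 2.20 and 2.89, and in 2 of 14 DU×IB piglets, at 2.48 and 2.68, whereas 95% of all values of the table lay above 3.40. At such levels the order of the piglets carries little information and the difference cannot be read as a ratio of RNA amounts. The 3 IB piglets above 3 were replicate 1 at 3.57, replicate 9 at 4.68 and replicate 4 at 5.10.

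Within each series the RBP7 difference had the same direction. In the series of 16 arrays it was 1.06 (95% confidence interval 0.06 to 2.06, adjusted p = 0.997), with DU×IB at 4.01 ± 1.11 and IB at 2.95 ± 0.97 (SD, n = 8 each). In the series of 12 arrays it was 2.28 (95% confidence interval 1.20 to 3.36, adjusted p = 0.0698), with DU×IB at 5.05 ± 1.04 and IB at 2.77 ± 0.94 (SD, n = 6 each). RBP7 was thus higher in DU×IB in both series but called in the smaller one alone, where 4.38% of all probe sets were called against 0.172% in the larger. The difference was larger by 1.22 in the smaller series, which did not pass a limma interaction test (95% confidence interval -0.26 to 2.69, adjusted p = 0.8).

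FABP4 ranged in IB from 9.70 over a median of 10.91 to 12.55, and in DU×IB from 10.79 over a median of 11.18 to 12.21. Over all arrays the IB piglets spread more widely, and 6 IB piglets, replicate 12 among them, lay below every DU×IB piglet. The highest and the lowest level of all were in IB replicates 1 and 12. The other IB piglets lay between 10.27 and 11.95, so these 2 arrays widened the range of IB, which stayed somewhat wider than that of DU×IB without them. On average the level was 11.02 ± 0.72 in IB and 11.39 ± 0.48 in DU×IB (SD, n = 14 each), with 12 of 14 DU×IB piglets above the IB median. The log2 difference of 0.37 (SE 0.23, 95% confidence interval -0.11 to 0.84, limma adjusted p = 0.801) did not pass the test, nor did it with the series as a block (adjusted p = 0.513). In the larger series the difference was 0.15 and in the smaller 0.66 (adjusted p = 0.997 and 0.224).

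CFD, the complement protease, ranged in IB from 9.82 over a median of 10.45 to 11.43, and in DU×IB from 9.28 over a median of 10.11 to 11.02. Here 6 DU×IB piglets lay below every IB piglet and 10 of 14 below the IB median. The means were 10.52 ± 0.44 in IB and 10.08 ± 0.61 in DU×IB (SD, n = 14 each), and the log2 difference of -0.44 (SE 0.21, 95% confidence interval -0.86 to -0.01, limma adjusted p = 0.568) did not pass the test over all probe sets. In the larger series the difference was -0.31 and in the smaller -0.60 (adjusted p = 0.997 and 0.117). With the series as a block the adjusted p was 0.196, where 2.77% of all probe sets were called (145 of 5226) and RBP7 remained the called gene among the 4.

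PNPLA2, the triglyceride lipase, ranged in IB from 10.77 over a median of 11.53 to 13.02, and in DU×IB from 10.44 over a median of 11.27 to 11.84. At the upper end 4 IB piglets lay above every DU×IB piglet, among them replicates 1 and 12 at 12.67 and 11.95. At the lower end 3 DU×IB piglets lay below every IB piglet. The means were 11.66 ± 0.62 in IB and 11.24 ± 0.45 in DU×IB (SD, n = 14 each), and the log2 difference was -0.43 (SE 0.21, 95% confidence interval -0.86 to 0.01, limma adjusted p = 0.59). It was -0.40 and -0.46 within the 2 series, and the adjusted p with the series as a block was 0.268. CFD and PNPLA2 were also lower by 0.64 and 0.55 in the series of 12 than in the series of 16 arrays, while FABP4 differed by 0.02 between the series.

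**Figure D1:**
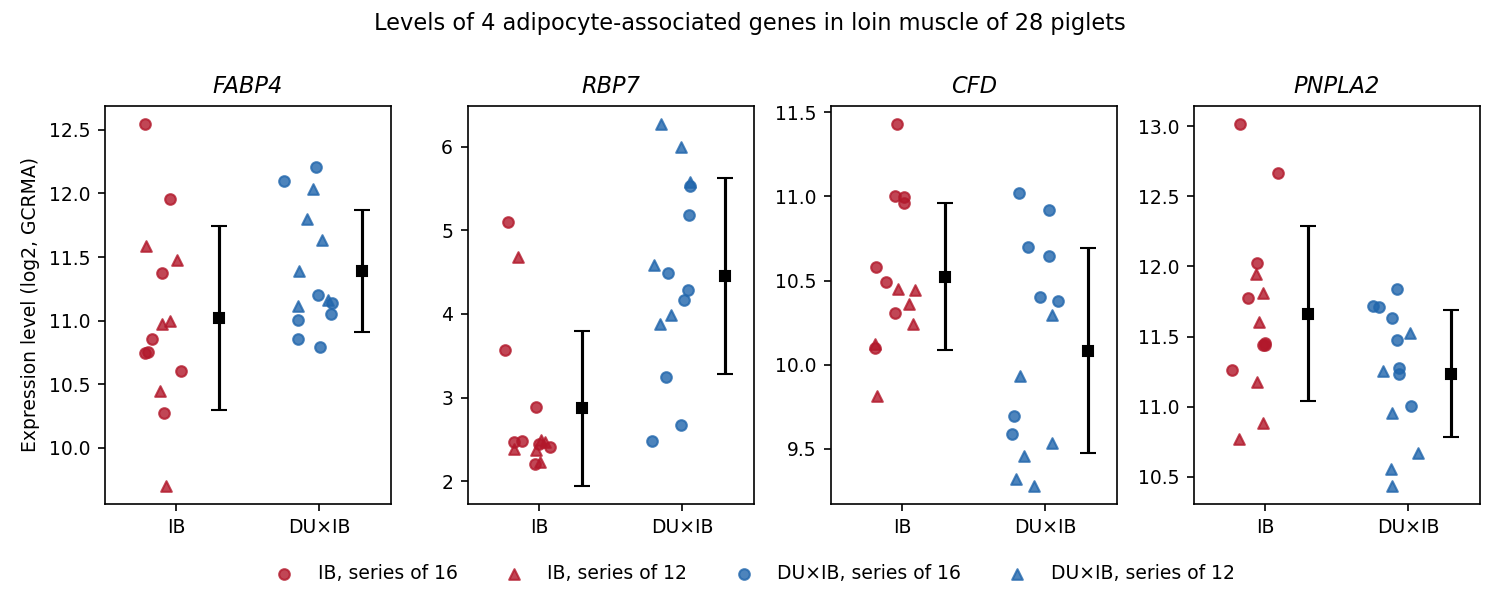
Log2 expression level of the 4 genes in each of 28 piglets (y axis, with its own range in each panel) by genetic type (x axis), where circles are arrays of the series of 16, triangles arrays of the series of 12, and black squares with bars the mean ± SD of 14 piglets. RBP7 was under 3 in 11 IB and 2 DU×IB piglets, and the genetic types overlapped in part for each of the 4 genes.

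**Figure D2:**
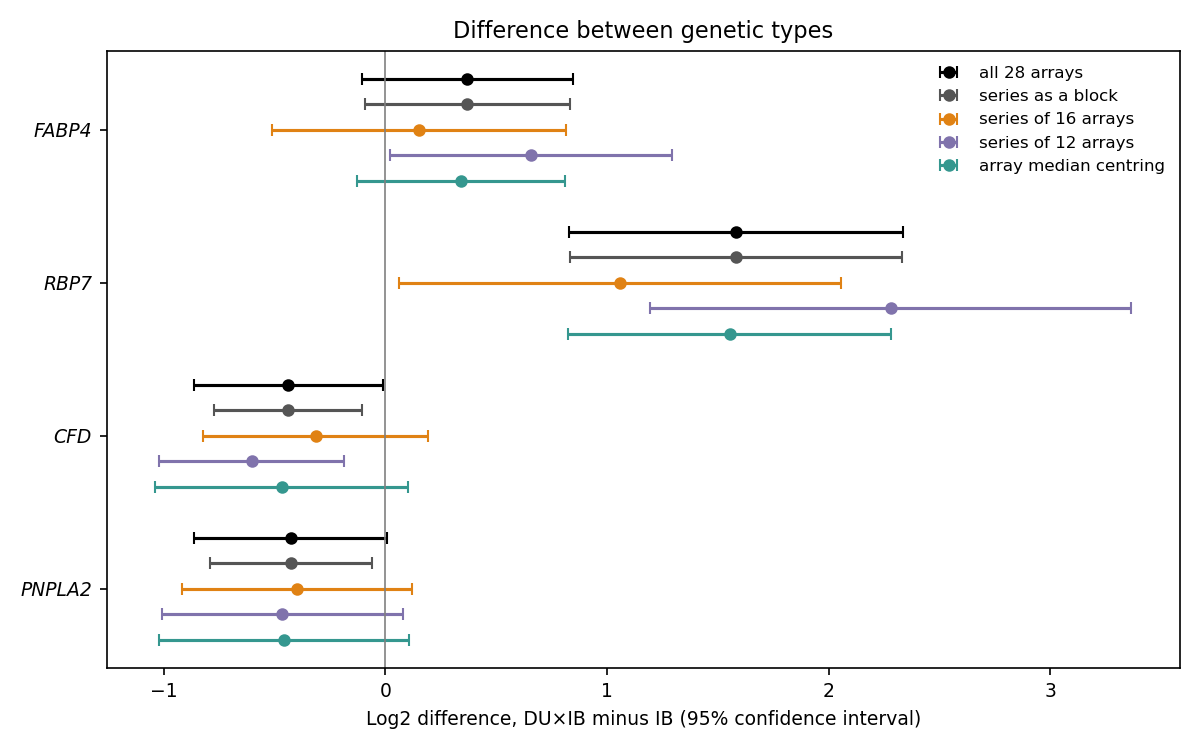
Log2 difference between the genetic types, DU×IB minus IB (x axis), with its 95% confidence interval for each gene over all 28 arrays, with the series as a block, in the 2 series separately, and after centring each array on its median. RBP7 stayed above 0 in every setting drawn, from 1.06 to 2.28, and the interval of FABP4 over all arrays held 0.

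Whether the 4 genes co-varied among piglets was asked over the 6 pairs. They fell into 2 pairs of positive correlation, FABP4 with RBP7 and CFD with PNPLA2, and no correlation between a gene of one pair and a gene of the other was positive over the 28 piglets. All p-values of pairs are two-sided, from permutation tests, and adjusted over the 6 pairs.

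The fatty acid-binding and retinol-binding proteins FABP4 and RBP7 rose together over the 28 piglets, with Pearson's r = 0.581 (permutation test, adjusted p = 0.0027) and Spearman's rho = 0.663 (adjusted p = 0.00084). After values were centred on the mean of their genetic type and series, r was 0.516 (adjusted p = 0.0412). Centred values gave 0.61 within IB and 0.434 within DU×IB, neither past the test (adjusted p = 0.165 and 0.215). They gave 0.567 and 0.428 within the series of 16 and 12 arrays. Without centring, r was 0.614 within IB and 0.487 within DU×IB (adjusted p = 0.0862 and 0.117). It was then 0.552 and 0.649 within the series of 16 and 12 arrays (adjusted p = 0.105 and 0.0284). The 3 IB piglets with RBP7 above 3 were also at 12.55, 11.95 and 11.48 for FABP4, against an IB median of 10.91. Without the 2 piglets farthest from the median of FABP4, r was 0.646 (adjusted p = 0.00294). It was 0.0552 in the 15 piglets with RBP7 of at least 3 and 0.13 in the 13 piglets under 3. The r was thus weak on either side of that level. A split on RBP7 itself narrows its range, however, and these values were not centred. The upper part also holds IB replicate 1. Whether the correlation rests on the step between the 2 levels can therefore not be told from them.

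CFD and PNPLA2 had the highest correlation of the 6 pairs, with r = 0.679 (permutation test, adjusted p = 0.00042) and rho = 0.513 (adjusted p = 0.0176). Both genes also differed between the series, and on values centred on genetic type and series r was 0.451 (adjusted p = 0.0493). Centred values gave 0.453 within IB and 0.523 within DU×IB, neither past the test (adjusted p = 0.443 and 0.157). Without that centring, r was 0.582 in IB and 0.731 in DU×IB (adjusted p = 0.0862 and 0.0114). It was then 0.491 and 0.678 in the series of 16 and 12 arrays (adjusted p = 0.105 and 0.0284). Without the 2 piglets farthest from the median of CFD, r was 0.56 (adjusted p = 0.00918).

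RBP7 and CFD ran in opposite directions, with r = -0.577 (permutation test, adjusted p = 0.0027) and rho = -0.473 (adjusted p = 0.0224), as the difference between the genetic types also did. On centred values r was -0.402 and no longer passed the test (adjusted p = 0.105). Centred values gave -0.629 within DU×IB and -0.0714 within IB, neither past the test (adjusted p = 0.139 and 0.99). Without centring, r was -0.723 in DU×IB (adjusted p = 0.0114). It was then -0.00149 in IB (adjusted p = 0.997), where RBP7 was at the bottom of the scale in most piglets. In the series of 16 and 12 arrays it was -0.503 and -0.724 (adjusted p = 0.105 and 0.0284), and without the 2 piglets farthest from the median of RBP7 it was -0.446 (adjusted p = 0.0345). The r of RBP7 with CFD in DU×IB less that in IB, on centred values, was -0.558 (permutation of genetic type within series, adjusted p = 0.133).

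The other pairs did not pass the test over the 28 piglets. RBP7 and PNPLA2 had r = -0.343 and rho = -0.26 (permutation test, adjusted p = 0.112 and 0.182), and r = -0.0406 on centred values. FABP4 had r = -0.232 with CFD and -0.159 with PNPLA2 (adjusted p = 0.28 and 0.416), with rho = -0.262 and -0.296 (adjusted p of 0.182 for both). Both became positive, 0.136 and 0.165, when each array was centred on its median. When those values were also centred on genetic type and series, they were -0.0942 and -0.0345. Their sign thus changed with the processing, and the cause was not tested. FABP4 thus had no correlation past the test with the protease or the lipase over all 28 piglets. Without IB replicates 1 and 12 it had r = -0.467 with CFD and -0.353 with PNPLA2 (permutation test, adjusted p = 0.0242 and 0.0817), RBP7 had -0.344 with PNPLA2 (adjusted p = 0.0817), and on centred values the only one of these and of RBP7 with CFD to pass was the last (-0.435, adjusted p = 0.0807).

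**Figure D3:**
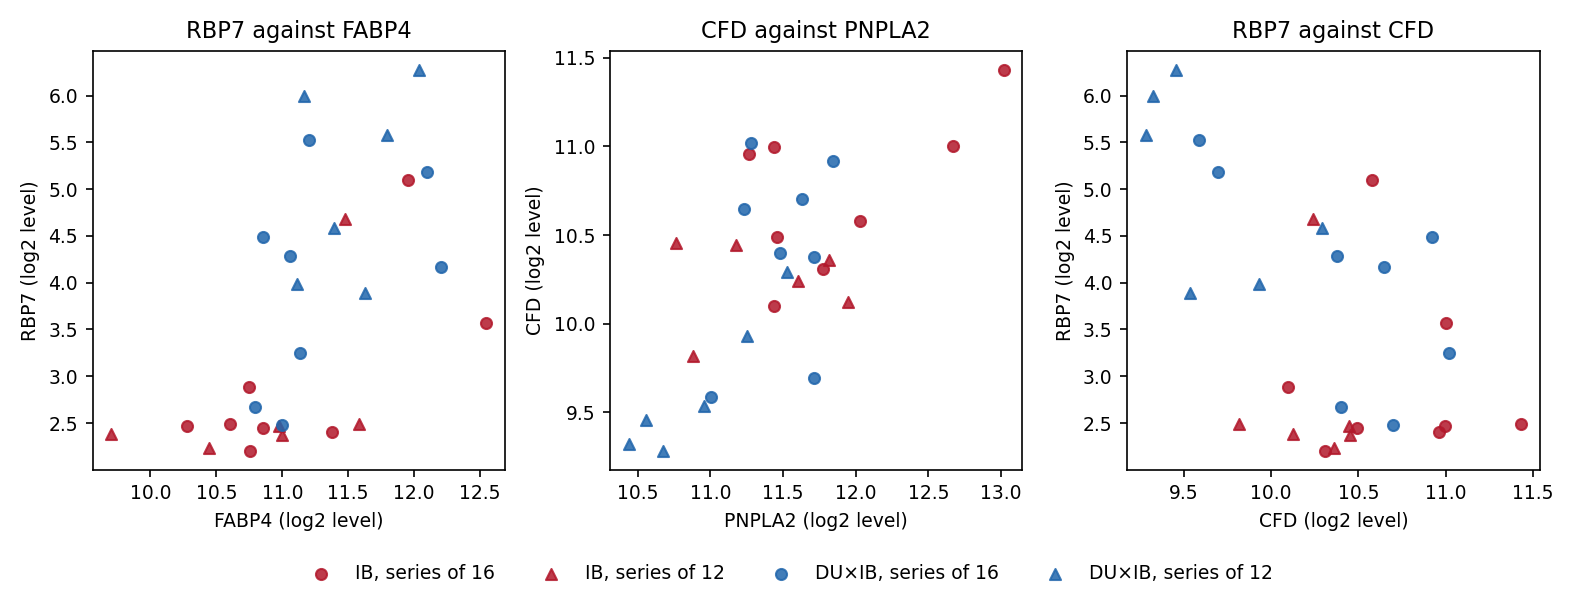
Log2 level of one gene against another in 28 piglets for RBP7 and FABP4, CFD and PNPLA2, and RBP7 and CFD, coloured by genetic type, with circles for the series of 16 and triangles for the series of 12 arrays. Pearson's r over all piglets was 0.581, 0.679 and -0.577, and the lowest row of RBP7 values, under 3, was mostly IB.

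The genes whose levels were most like those of the 4 genes were named by Pearson's r over the 28 centred arrays, 5 for each, as a description. All values come from the same arrays and share their normalization. For FABP4 they were ERG (0.75), MGST1 (0.75), PROS1 (0.74), CANX (0.74) and DGAT2 (0.74), while the middle 95% of all other probe sets lay between -0.44 and 0.54. ERG is a transcription factor of endothelium, and DGAT2 makes triglycerides. For RBP7 they were ELK3 (0.76), C4H1orf54 (0.76), ERG (0.73), RAB3D (0.72) and PECAM1 (0.70), the last an adhesion protein of endothelium. ERG was thus near the top for both genes. FABP4 stood 84th of 5225 probe sets in likeness to RBP7, and RBP7 187th in likeness to FABP4.

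For CFD the most similar genes were the chemokine CXCL12 (0.78), SF1 (0.67), EIF3L (0.66), MBP (0.65) and FN3K (0.64). For PNPLA2 they were YPEL3 (0.81), MN1 (0.75), FHL3 (0.75), HPS6 (0.72) and PDE4C (0.71), none of which was among those of CFD. PNPLA2 stood 197th of 5225 in likeness to CFD, and CFD 259th in likeness to PNPLA2. CFD stood 93rd from the bottom in likeness to RBP7.

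Genes of the pathways around the 4 members, and markers of other cell types, were then read as lists, with the number that passed the limma test and the median log2 difference beside the median of 0.02 over all probe sets. Of the lipid droplet and lipolysis genes around PNPLA2, 5 of 20 were measured and none passed (2 higher and 3 lower in DU×IB, median -0.07). They were ABHD5, the activator of PNPLA2, at -0.38, HILPDA, an inhibitor of it, at 0.27, BSCL2 (seipin) at -0.17, FITM1 at 0.16 and the droplet coat protein PLIN2 at -0.07. Of the fatty acid-binding and retinoid genes around FABP4 and RBP7, 4 of 39 were measured and none passed. FABP3, the fatty acid-binding protein of muscle fibres, was at 0.37, the retinal dehydrogenase ALDH1A1 at -0.15, and the retinoid receptors RXRG and RXRB at -0.16 and 0.08. CAV1 was at 0.28 and did not pass, and its r on centred values was 0.60 with FABP4, 0.67 with RBP7 and -0.46 with CFD.

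Of the complement genes around CFD 11 of 32 were measured, 3 higher and 8 lower in DU×IB, with a median of -0.50 on the log2 scale. Without IB replicates 1 and 12 the median was -0.19, with 4 higher and 7 lower, and the mean level of the list was 7.40 in IB and 7.36 in DU×IB. None passed the test, and with the series as a block CD59, a membrane inhibitor of complement, was higher in DU×IB (0.78, adjusted p = 0.0758). C1R and C1S, the proteases of the classical pathway, were at -0.68 and -0.56. Among piglets they varied with PNPLA2 (r of 0.62 and 0.64 on centred values) and with CFD (0.51 and 0.52), and SERPING1, their inhibitor, did likewise (0.55 and 0.54). Without IB replicates 1 and 12 the 3 genes had r of 0.48, 0.52 and 0.38 with PNPLA2 and of 0.65, 0.65 and 0.71 with CFD. With FABP4 and RBP7 these 3 genes had r between -0.15 and 0.11.

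Of the genes of fatty acid and triglyceride synthesis 9 of 24 were measured, with a median of -0.16. ME1 (malic enzyme), a source of NADPH for making fatty acids, was lower in DU×IB (-1.02, limma adjusted p = 0.0531), a call that was lost with array median centring, quantile normalization or array weights, and ELOVL6, a fatty acid elongase, passed with the series as a block (-0.63, adjusted p = 0.0929). SCD, the stearoyl-CoA desaturase, did not pass (-0.71), and its r with PNPLA2 was -0.79 on centred values, against 0.07 with FABP4. DGAT2 was at 0.42 without passing, and had r = 0.74 with FABP4 and -0.23 with PNPLA2. Of the adipogenic regulators 13 of 28 were measured and none passed, with CEBPD at -0.44, KLF4 at -0.33 and PPARGC1B at 0.39 having the lowest p.

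All 11 measured of the 23 markers of stromal progenitors and their matrix were higher in DU×IB, with a median of 0.73 and a mean level between 6.87 and 8.76 in IB and between 8.41 and 9.35 in DU×IB, and of these LOX, the collagen cross-linking enzyme, passed (0.89, adjusted p = 0.0924). The call of LOX was kept with the series as a block but lost with array median centring, quantile normalization or array weights and when any of 18 of the 28 arrays was left out. With the series as a block AEBP1, COL1A1, COL5A1 and POSTN passed as well, at 0.90, 1.21, 0.73 and 1.29. These 5 genes had r between -0.14 and 0.22 with RBP7 and between 0.06 and 0.46 with FABP4. All 9 measured of the 21 macrophage markers were lower in DU×IB, with a median of -0.40 and none past the test, among them CD163 at -0.50, C1QA at -0.67 and C1QC at -0.50. Without IB replicates 1 and 12 the median was -0.11, with 8 lower and 1 higher. Their mean level lay between 5.32 and 7.81 in IB and between 5.08 and 5.85 in DU×IB, and its part in the differences of CFD and PNPLA2 was not tested. Of the muscle fibre markers CASQ2, a calcium store of slow fibres, was higher in DU×IB with the series as a block (0.97, adjusted p = 0.0927), and of 18 blood cell markers HBB (0.13) and ALAS2 (-0.01) were measured.

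**Figure D4:**
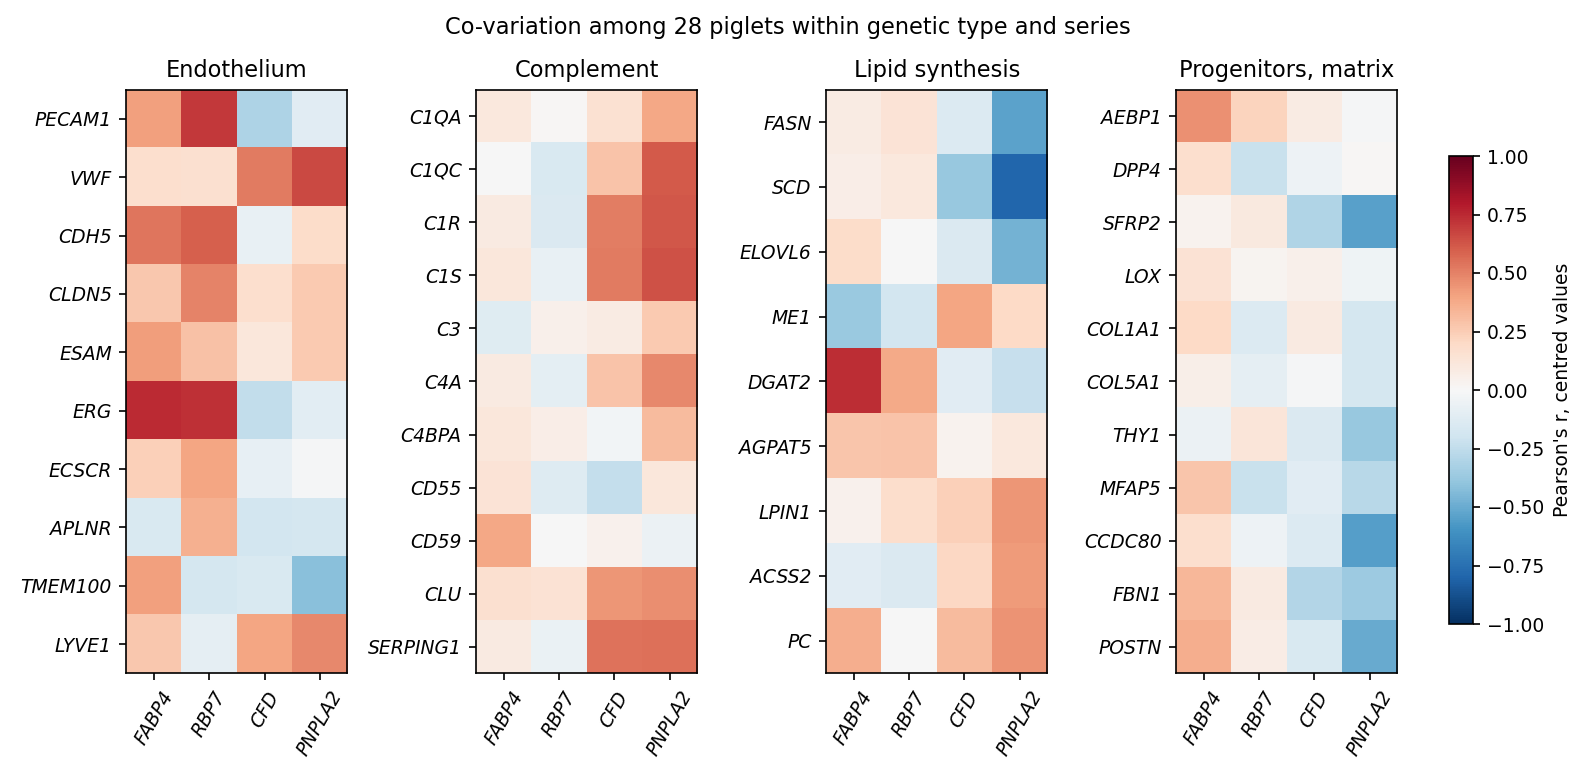
Pearson's r of each list gene (rows) with FABP4, RBP7, CFD and PNPLA2 (columns) over 28 piglets on values centred on their genetic type and series, on a colour scale from -1 (blue) to 1 (red). ERG and PECAM1 were red for RBP7, C1R and C1S for CFD and PNPLA2, and SCD was dark blue for PNPLA2.

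Of the endothelial markers 10 of 25 were measured, 7 higher and 3 lower in DU×IB, with a median of 0.19. APLNR, the apelin receptor, was higher in DU×IB (0.99, adjusted p = 0.0831), a call that was kept with the series as a block but lost after quantile normalization or array median centring, and when any of 16 of the 28 arrays was left out. The mean level of the 10 markers lay between 6.19 and 7.80 in IB and between 6.44 and 7.50 in DU×IB, so that it overlapped almost fully, with means of 6.85 and 6.99. The correlation of each of the 4 genes with the mean of the markers of endothelium, macrophages, progenitors and muscle fibres gave 16 relations, which were chosen after the values were seen and are adjusted together.

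RBP7 rose with the endothelial mean, with r = 0.592 on centred values (permutation test, adjusted p = 0.0254) and rho = 0.68 (adjusted p = 0.00288). By series, r was 0.732 over the 16 arrays and 0.257 over the 12, and it was 0.639 without the 2 piglets farthest from the median of RBP7. Within the genetic types it was 0.808 in DU×IB and 0.423 in IB. FABP4 had r = 0.534 with the same mean (permutation test, adjusted p = 0.0958) but rho = 0.401 (adjusted p = 0.347), and r was 0.386 without the 2 piglets farthest from its median. Without IB replicates 1 and 12 it was 0.286 (adjusted p = 0.464), whereas that of RBP7 was 0.615 (adjusted p = 0.0238). After array median centring FABP4 had r = 0.424 (adjusted p = 0.163) and RBP7 0.488 (adjusted p = 0.0869). No other of the 16 relations passed without that centring, and with it PNPLA2 and the muscle fibre mean did (r = 0.533, adjusted p = 0.0869, against 0.227 without it). By gene, PECAM1, CDH5 and ERG had r of 0.70, 0.60 and 0.73 with RBP7, whereas VWF and LYVE1 had 0.16 and -0.09. Without centring, r of RBP7 with the endothelial mean was 0.502 over the 28 piglets. It was 0.0173 in the 15 piglets with RBP7 of at least 3 and 0.283 in the 13 under 3. These values on either side of 3 mix the series and the genetic types, and the upper part holds IB replicate 1. They therefore do not show whether RBP7 rose with that mean within a genetic type and series. Centred values within DU×IB gave the 0.808 above. The endothelial part in the difference of RBP7 between the genetic types was not tested.

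**Figure D5:**
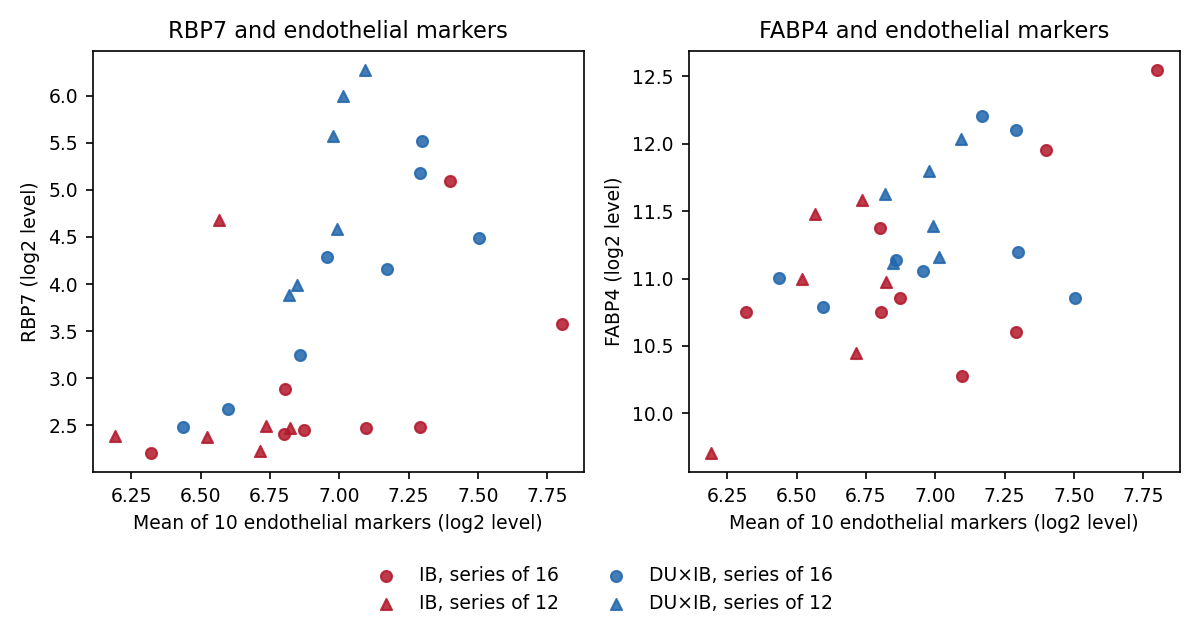
Log2 level of RBP7 (left) and FABP4 (right) against the mean log2 level of 10 endothelial markers in 28 piglets, coloured by genetic type, with circles for the series of 16 and triangles for the series of 12 arrays. The endothelial mean overlapped between the genetic types (6.19 to 7.80 in IB and 6.44 to 7.50 in DU×IB), and the IB piglets with RBP7 under 3 lay between 6.19 and 7.29 on the x axis.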

How the data were processed

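Loin muscle RNA of 28 piglets was hybridized to 1 array each. The deposited log2 values were made by the authors with GCOS and GCRMA in BRB-ArrayTools, which corrects background by probe sequence and normalizes arrays by quantiles, and the table holds the 5226 probe sets kept by their variation filter. Because that filter used these values, probe sets with little variation were not tested. The number of arrays limits the precision. Of the probe sets 572 were named by the study and 2073 by the array annotation, while 46 had several genes and 2535 none.

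Genetic types, taken from the labels, were compared with limma 3.58.1 in R 4.3.3 (lmFit and eBayes without a covariate, two-sided tests, p-values adjusted by Benjamini-Hochberg over the whole table, threshold of 0.10). The study's model also held array and hybridization series. The labels do not name the series, so it was recovered from 7 spike-in probe sets at the largest gap between arrays, after values had been seen, and used as a block. Correlations used 100000 permutations, within genetic type and series for centred values (Python 3.11.15, scipy 1.17.1). Scripts were tested on simulated data. The named genes were the 4 members, the 5 named genes of highest centred r for each, and from each list those past the threshold in either fit, else the 3 of lowest p. Where probe sets shared a gene, the one in the study's tables, else that of highest mean, stood for it. Other list genes were named after their values were seen. The members and lists were chosen with earlier results of these data known. Sequences and coordinates are not used here.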

Additional observations from a re-analysis of the deposited data

Results flagged for a closer look

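The correlation of RBP7 with PNPLA2 differed between the genetic types, by a permutation test of the difference itself. On values centred within genetic type and series, r was -0.443 in DU×IB and 0.231 in IB, a difference of -0.674 (permutation of genetic type within series, p = 0.0144, adjusted p = 0.0862 over the 6 pairs). On ranks it was -0.689 and did not pass (adjusted p = 0.123). In IB, RBP7 was under 3 in 11 of 14 piglets, and the part of this in the difference was not tested.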

How the results depend on the processing

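The log2 differences of the 4 genes kept their sign in all 12 other settings and without any 1 of the 28 arrays. RBP7 ranged from 1.06 to 2.28 over the settings and from 1.44 to 1.75 without 1 array, and kept its call except within the series of 16 arrays (1.06, adjusted p = 0.997). FABP4, CFD and PNPLA2 passed in no setting. Without 1 array FABP4 ranged from 0.27 to 0.49, CFD from -0.51 to -0.37 and PNPLA2 from -0.50 to -0.32.

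The count of called probe sets, 52, was 145 when the series was a block, 9 and 229 within the series of 16 and 12 arrays, 96 with array weights, 122 with median centring and the series as a block, 34 at a threshold of 0.05, and 34 to 66 without 1 array, lowest without DU×IB replicate 7. The count of list genes called, 3, was 10, 0, 9, 5 and 10 in the first of these settings in the same order, 1 with median centring, 1 without both IB replicates 1 and 12, and 0 to 5 without 1 array. With the replicate number as a block 145 probe sets and 12 list genes were called, and RBP7 had an adjusted p of 0.0473, with no call among the 4 genes changed. Numbers do not pair the piglets: after genetic type and series means, same-numbered piglets correlated above 0.1 in 2 of 14 pairs, and 1 of 14 correlated best with its own number. Replicate number and series could not be fitted together because each number lies in 1 series, and none of the 4 genes had a second probe set to try.

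The correlations given here are on values not centred on genetic type and series, unless said. FABP4 with RBP7 did not pass within DU×IB (0.487) or the series of 16 (0.552), nor CFD with PNPLA2 within the series of 16 (0.491). On centred values neither of these pairs passed within IB or within DU×IB. FABP4 with CFD was 0.117 within IB and 0.136 with median centring, and passed within the series of 12 (-0.535) and without the 2 farthest piglets (-0.467). FABP4 with PNPLA2 was 0.0874 within IB, 0.141 within the series of 16 and 0.165 with median centring, and passed within the series of 12 (-0.68) and without the 2 farthest piglets (-0.353). RBP7 with CFD did not pass on centred values (-0.402), within IB (-0.00149), within the series of 16 (-0.503), or with median centring before and after that centring (-0.344 and -0.318). RBP7 with PNPLA2 was 0.249 within IB and passed within DU×IB (-0.599) and the series of 12 (-0.533). It also passed without IB replicates 1 and 12 (-0.344), which were the 2 farthest piglets for FABP4. The difference of its r between genetic types did not pass on ranks (-0.689). The cause was not tested in any of these. Median centring together with the series as a block or with centred values, correlations with marker lists, IB replicates 1 and 12 left out, ranks for the difference, and list counts over the settings were added after the data were seen.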
